A study of Rattus norvegicus with 26 samples.

Results

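Protein kinase A (PKA) was followed through its subunits while rat multipotent adult progenitor cells (rMAPCs) were turned towards smooth muscle cells (SMCs), with the RIIβ regulatory subunit Prkar2b at the centre. The 9 genes were the regulatory subunits Prkar2b, Prkar2a, Prkar1a and Prkar1b, the catalytic subunits Prkaca and Prkacb, the kinase inhibitor peptides Pkia and Pkib, and the anchoring protein Akap12. They were picked by name, so every array probe annotated with one of these symbols was taken, which gave 17 of the 41012 gene probes of the array (9 of 35287 gene names). Prkar2b itself was chosen because its level fell over the days, so its change with time and its level in primary SMCs are described and not tested. Probes of a gene are numbered from the brightest, by mean log2 intensity over all arrays, and the brightest one stands for the gene unless another is named.

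PKA is held inactive as a complex of a regulatory subunit dimer and a pair of catalytic subunits. Cyclic AMP (cAMP), made by adenylyl cyclases and broken down by phosphodiesterases, binds the regulatory subunits and frees the catalytic ones, which then phosphorylate enzymes, channels and the transcription factor CREB. The PKI peptides block free catalytic subunits, and A-kinase anchoring proteins (AKAPs) tether the complex to particular places in the cell. RIα is found in nearly all tissues, whereas RIIβ is best known from fat and brain and RIβ from neurons. In smooth muscle, PKA signalling is known for relaxing the cell.

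RNA of 26 samples was hybridised to single-colour Agilent arrays. Both rMAPC lines came from the bone marrow of female Fischer rats and are clones that express Oct4. Cl19 was derived from an animal of 3 weeks and 3c3 from an embryo at E18, so each line stands for 1 clone. Cells of both lines were held for 6 days at 5% oxygen in serum-free basal medium with TGF-β1 at 2.5 ng/ml and PDGF-BB at 5 ng/ml, and 3 arrays per line were made on day 0 (d0), d2, d4 and d6. Another 2 arrays held primary rat aortic SMC RNA, which the labels call commercial RNA. The study's methods call the triplicates biological replicates, but no source used here says whether they were separate cultures, so the p-values measure the spread between these samples, which may be technical.

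Levels are log2 intensities after quantile normalization over the 26 arrays, and a value was called measured where the scanner software put it well above background. A probe was tested where all arrays of at least 1 of the 9 groups measured it, which held for 24442 probes and for 15 of the 17 member probes (8 of the 9 genes). Pkia and Prkacb probe 5 were left untested. Differences are log2 differences from 1 limma fit with their standard error (SE), and adjusted p-values are limma's after Benjamini-Hochberg adjustment over all tested probes, with a threshold of 0.05.

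Each line, and likewise the primary SMC RNA, had a scan day of its own, so line and scan day cannot be told apart, and the 4 days of a replicate shared a slide in a fixed order, so day and slide position cannot be told apart either. The 4 arrays of the 3c3 replicate 3 slide had a net signal of 28.3 to 44.5 on the negative control spots, against 10.9 to 14.0 on the other 20 rMAPC arrays, and 43.2% to 51.8% of their probes were measured against 52.8% to 61.4%. On the primary SMC arrays 43.6% to 44.5% of the probes were measured. The array labelled Cl19 d2 replicate 1 stood closer to the 3c3 d2 arrays (root mean square difference 0.38 to 0.54 log2 over tested probes) than to the other Cl19 d2 arrays (0.88 and 0.92), so Cl19 d2 values are also given without it. Tagln, an early smooth muscle gene, rose 93.1-fold in Cl19 and 61.7-fold in 3c3 by d6, and 5 of 7 tested smooth muscle markers rose in each line. Mylk, the myosin light chain kinase gene, and Myocd, a coactivator of smooth muscle genes, were measured on both primary SMC arrays, but on only 1 and 2 of the 24 rMAPC arrays, and Myocd was called lower in 3c3 (adjusted p = 0.00402). The Oct4 gene Pou5f1 fell at least 292-fold in Cl19 and 17.2-fold in 3c3. Of 6 tested markers of undifferentiated rMAPCs 5 fell in Cl19 and 4 in 3c3, while Foxa2 rose 1.58-fold and 1.41-fold (adjusted p = 0.00314 and 0.0223).

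Markers of other cells moved as well. Of 6 tested endothelial markers 3 fell in Cl19 and 1 in 3c3, with Pecam1 lower at least 12.4-fold and 3.36-fold (adjusted p = 4.25e-05 and 0.00801) and Tek and Esam lower in Cl19 (adjusted p = 2.24e-10 and 0.000224). Of 5 tested fibroblast markers 3 rose and 1 fell in Cl19, and 1 rose and 1 fell in 3c3. Col1a1 rose in both lines (7.27 and 3.53 on the log2 scale) and Pdgfra fell in both (-1.93 and -1.77), whereas Dcn and Lum were measured on all Cl19 d6 arrays (adjusted p = 1.4e-07 and 5.96e-10 against d0, where no array measured them) and on no 3c3 array. Of 3 tested leukocyte markers the macrophage gene Csf1r rose in 3c3 (6.24) and was not past the threshold in Cl19 (1.03), and the others passed in neither line. The fat cell genes Fabp4 and Lep were measured on 0 of 26 arrays and Adipoq on 1. Of the 2 tested fat cell genes, Cidec went from a mean of 0.97 on 3c3 d0, where no array measured it, to 5.42 on d6 (adjusted p = 1.27e-06) and was not past the threshold in Cl19 (-0.25), and Cfd, measured on no d0 array, was called higher in both lines (adjusted p = 0.0412 and 0.0232). In whole-culture RNA, fewer cells of a type and less RNA per cell cannot be told apart.

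Some of the probes are printed to show what was hybridised and how far probes of 1 gene resemble each other. They are the array's own 60-base sequences, 5′ to 3′, for the regulatory subunits, the PKA catalytic subunits and Akap12. For Prkacb and Akap12 the brightest probe, whose levels are given further on, is not among them. Capitals mark the longest exact run, of 18 bases, that Prkacb probes 2 and 5 share. On both sides of it the 2 probes also match but for single bases, as far as they overlap.
Prkar2b probe 1: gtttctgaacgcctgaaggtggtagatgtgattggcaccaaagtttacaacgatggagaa
Prkar2a probe 1: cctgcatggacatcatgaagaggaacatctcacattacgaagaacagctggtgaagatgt
Prkar1a probe 1: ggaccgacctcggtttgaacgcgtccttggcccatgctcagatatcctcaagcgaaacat
Prkar1b probe 1: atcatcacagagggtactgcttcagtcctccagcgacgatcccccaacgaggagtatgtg
Prkaca probe 1: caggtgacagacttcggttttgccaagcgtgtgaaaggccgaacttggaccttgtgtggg
Prkacb probe 2: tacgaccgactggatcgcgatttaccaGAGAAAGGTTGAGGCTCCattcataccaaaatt
Prkacb probe 5: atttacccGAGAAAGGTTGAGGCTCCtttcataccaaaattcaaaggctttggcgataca
Akap12 probe 2: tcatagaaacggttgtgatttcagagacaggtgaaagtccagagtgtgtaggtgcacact

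The array's annotation places the Prkar2b probes at chr6:50241050-50241109 and chr6:50235419-50235477 of rn4, both on the minus strand, and the Prkar2a probe at chr8:113805153-113805212 on the plus strand. Over the 122 pairs of probes for different genes the longest shared run was 11 bases, but the probes were not compared with the transcripts of the other subunits. Prkar1a is uncertain in its placing. Both its probes are placed on chromosome X (the first at chrX:148642430-148642489), while RefSeq on the newer GRCr8 build lists Prkar1a on chromosome 10 and a pseudogene, Prkar1a-ps1, on X. Its values may therefore hold signal from a near-identical copy and are uncertain. Prkacb probe 5 was placed on chromosome 1, away from Prkacb on chromosome 2, and was measured on 1 of 26 arrays.

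Prkar2b, which encodes RIIβ, was high before differentiation and fell steeply in both lines. On Cl19 d0 its 3 arrays read 9.62, 9.49 and 9.63, on d2 6.04, 4.94 and 5.88, on d4 4.96, 4.30 and 4.31, and on d6 3.76, 3.79 and 3.60. On 3c3 d0 they read 9.69, 9.31 and 9.27, on d2 5.55, 5.31 and 4.99, on d4 4.46, 4.56 and 3.57, and on d6 2.92, 2.81 and 3.99. The last values of 3c3 d4 and d6, both from the slide with the higher background, were not well above background. The primary SMC arrays read 5.86 and 6.12. No d0 array overlapped any later array, and most of the fall had taken place by d2.

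**Figure D1:**
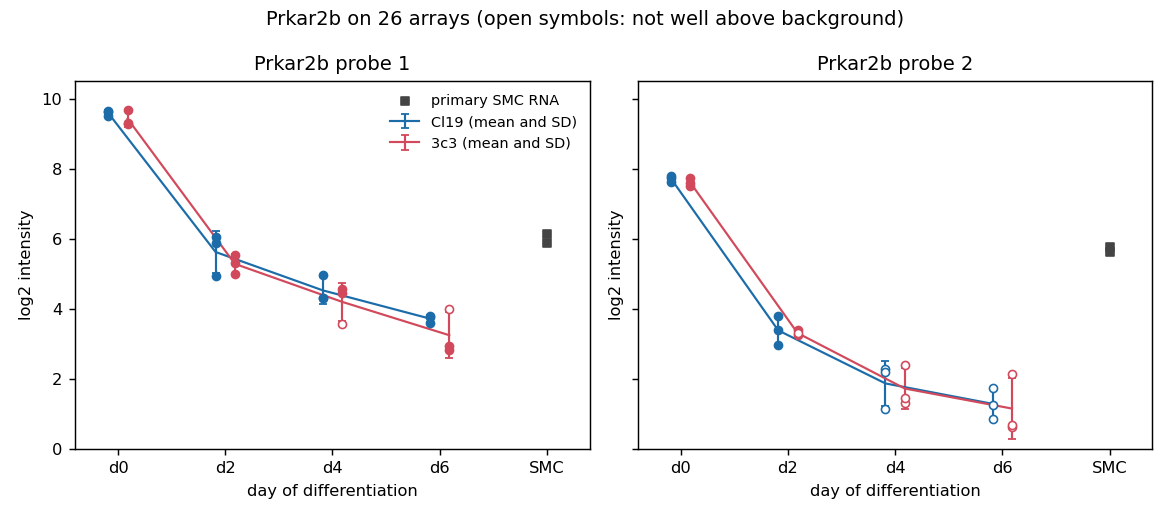
Log2 intensity of both Prkar2b probes (vertical axis) by day of differentiation and in primary SMC RNA (horizontal axis), 1 symbol per array, with lines and bars for the mean and SD of 3 arrays. Both lines start between 9.27 and 9.69 for probe 1, lie between 4.94 and 6.04 on d2 and end between 2.81 and 3.99, while the SMC arrays read 5.86 and 6.12.

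From d0, Prkar2b was lower by 3.96 on d2, 5.06 on d4 and 5.87 on d6 in Cl19 (log2 differences, SE 0.32 each, n = 3), and by 4.14, 5.23 and 6.18 in 3c3. Without the array labelled Cl19 d2 replicate 1 the Cl19 d2 difference was -4.17. The Cl19 fall to d6 amounted to 58.4-fold. In 3c3 only 2 of 3 d6 arrays measured the probe, so that d0 was at least 69.1-fold above d6 there. Of 6 tested markers of undifferentiated rMAPCs, 5 fell by d6 in Cl19 and 4 in 3c3, while Foxa2 rose in both lines. Of 6 tested endothelial markers, 3 fell in Cl19 and 1 in 3c3. Pecam1 means over d0, d2, d4 and d6 were 5.80, 2.74, 0.825 and 2.08 in Cl19. In 3c3 the Pecam1 means were 5.82, 3.25, 2.15 and 3.71. The part of these markers in the Prkar2b values was not tested. Within the slides the Prkar2b difference of d6 less d0 ran from -6.04 to -5.70 in Cl19 and from -6.77 to -5.28 in 3c3. Ordered among the 24442 tested probes, this fall was the 82nd largest in Cl19 and the 6th largest in 3c3, a rank that belongs to the values it was chosen by.

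The fall of Prkar2b did not differ detectably between the lines. Because Prkar2b was chosen for a fall that both lines show, this choice itself favours a small difference. The Cl19 change less the 3c3 change was 0.31 on d6 (SE 0.45, 95% confidence interval -0.63 to 1.26, adjusted p = 0.764), 0.17 on d4 (adjusted p = 0.896) and 0.18 on d2 (adjusted p = 1). The d6 interval still spans falls that differ by 1.26 on the log2 scale, so the falls are not shown to be equal. Without the 3c3 replicate 3 slide the 3c3 change to d6 was -6.63 and the difference 0.76 (SE 0.39, adjusted p = 0.264).

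Primary SMC RNA held Prkar2b at a level between d0 and d6. Ordered by mean, the groups ran from Cl19 d0 (9.58 ± 0.08, SD, n = 3) and 3c3 d0 (9.42 ± 0.23) through primary SMC RNA (5.99 ± 0.18, n = 2), Cl19 d2 (5.62 ± 0.60) and 3c3 d2 (5.28 ± 0.28) to Cl19 d4 (4.52 ± 0.38), 3c3 d4 (4.20 ± 0.54), Cl19 d6 (3.72 ± 0.10) and 3c3 d6 (3.24 ± 0.65). Neighbours in this order overlapped, except 3c3 d0 with primary SMC RNA and 3c3 d2 with Cl19 d4. Primary SMC RNA was 2.28 above Cl19 d6 and 2.75 above 3c3 d6 (SE 0.36), the latter at least 6.41-fold. This placing rests on the normalization: in the authors' log2 values, which are not normalized between arrays, primary SMC RNA was 0.08 below Cl19 d6 (-0.08) and 0.58 above 3c3 d6. In those values the median of all tested probes lay at -2.17 and -2.09 in the same comparisons.

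The second Prkar2b probe lies further along the same transcript, from base 2671 against base 842 of its reference sequence, and followed the first across the 26 arrays (Pearson r = 0.969, given as a description). It read 7.72, 7.62 and 7.79 on Cl19 d0 and 7.72, 7.50 and 7.58 on 3c3 d0, but no d4 or d6 array of either line measured it. Cl19 d0 was thus at least 55.0-fold above d6 and 3c3 d0 at least 27.4-fold. Primary SMC RNA, at 5.77 and 5.63, was at least 13.6-fold above Cl19 d6 and at least 7.33-fold above 3c3 d6 on this probe. Here the primary SMC arrays also lay above every d2 array, of which the highest read 3.78.

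Other genes also fell from d0, with profiles near that of Prkar2b when the nearest probe of each gene was taken. Among 11120 genes, the 5 nearest profiles over the 9 group means, each taken relative to its own mean, were those of Chsy3 (root mean square difference 0.69 log2), Htr3a (0.72), Cd7 (0.81), Grip2 (0.84) and Add2 (0.85). For comparison, the second Prkar2b probe differed from the first by 0.66. Late values of some of these genes were near background. Chsy3 had means of 1.13 on Cl19 d6, 1.31 on 3c3 d6 and 2.57 in primary SMC RNA, and Add2 of 1.02, 0.37 and 1.83. These means lie below the lowest signals well above background of those arrays, so those parts of the match are uncertain. Chsy3 encodes a chondroitin sulfate synthase, Htr3a a serotonin-gated channel, Cd7 a lymphocyte surface protein, Grip2 a scaffold of glutamate receptors and Add2 a protein of the membrane skeleton.

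Prkar2a encodes RIIα, the closest relative of RIIβ, and it fell as well. Its Cl19 arrays read 5.98, 6.11 and 6.24 on d0, 5.74, 4.99 and 4.71 on d2, 3.86, 3.76 and 3.64 on d4, and 3.83, 3.70 and 3.39 on d6. In 3c3 they read 6.10, 5.97 and 5.94 on d0, 5.55, 5.53 and 5.37 on d2, 5.38, 4.66 and 4.61 on d4, and 5.03, 4.28 and 4.52 on d6. No d6 array reached the lowest d0 array in either line. On Cl19 d2 the difference was -0.96 (adjusted p = 0.00577), and -1.26 without the array labelled Cl19 d2 replicate 1 (adjusted p = 0.000304). The fall to d6 was 5.53-fold in Cl19 (-2.47, SE 0.24, adjusted p = 5.52e-08) and 2.63-fold in 3c3 (-1.39, adjusted p = 7.93e-05).

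The fall of Prkar2a was larger in Cl19, by 1.24 on d4 (SE 0.34, adjusted p = 0.0159) and by 1.07 on d6 (adjusted p = 0.0308). The d6 difference lost its call when any of 6 single arrays was left out, with adjusted p-values up to 0.0818, and without the 4 arrays of the 3c3 replicate 3 slide (adjusted p = 0.102). Neither primary SMC array measured Prkar2a (3.55 and 3.60). The 3c3 d6 level was at least 1.79-fold above primary SMC RNA (adjusted p = 0.00177). Cl19 d6, with a mean of 3.64, lay between the lowest signals well above background of the primary SMC arrays (3.92 and 3.63), so no difference from them is given.

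Prkar1b, which encodes RIβ, went the other way. In Cl19 it read 2.33, 2.15 and 2.47 on d0, where only the last value was measured, then 5.37, 2.76 and 3.51 on d2, 5.37, 3.21 and 5.14 on d4, and 4.60, 4.80 and 3.87 on d6. In 3c3 it read 4.44, 4.15 and 4.25 on d0, 5.18, 6.47 and 6.22 on d2, 6.56, 6.59 and 7.13 on d4, and 7.21, 6.90 and 7.46 on d6. Every d6 array was above every d0 array of its line. By d6 it rose at least 3.89-fold in Cl19 (fitted difference 2.11, SE 0.54, adjusted p = 0.00282) and 7.53-fold in 3c3 (2.91, adjusted p = 0.000194).

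The difference between the lines in the Prkar1b rise did not pass the threshold (adjusted p = 0.59), nor did that between the d0 levels (adjusted p = 0.0565), and both rest on the Cl19 d0 arrays, of which 1 of 3 measured the probe. On Cl19 d2 Prkar1b was at least 2.67-fold above d0 (adjusted p = 0.044), a call that was lost without the array labelled Cl19 d2 replicate 1 (adjusted p = 0.253). With the normexp background correction, which adds an offset of 50 to the intensities, the Cl19 rise to d6 was 0.36 (adjusted p = 0.0945). Primary SMC RNA, at 4.46 and 4.27, was 2.82 below 3c3 d6 (adjusted p = 0.000357) and differed from Cl19 d6 by 0.06 (adjusted p = 0.938).

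Prkar1a, the RIα gene, moved little. Its levels ran from 13.49 to 13.57 on Cl19 d0 and from 13.84 to 13.95 on Cl19 d6, and from 13.69 to 13.87 on 3c3 d0 and 13.47 to 14.14 on 3c3 d6. The change to d6 was 0.37 in Cl19 (SE 0.14, adjusted p = 0.029) and 0.08 in 3c3 (adjusted p = 0.684). The second probe gave 0.37 (adjusted p = 0.0485) and -0.05, and its Cl19 call was lost in 22 of 26 fits that left out 1 array (adjusted p up to 0.124). On the first probe the test over all days was not passed in either line (adjusted p = 0.0688 in Cl19 and 0.905 in 3c3). The Cl19 call of the first probe was lost when any of 5 single arrays was left out (adjusted p up to 0.0802). With each array scaled to its 75th percentile the direction turned, to -0.02 in Cl19 and -0.30 in 3c3. Primary SMC RNA read 14.26 and 14.24, 0.42 above 3c3 d6 (adjusted p = 0.0193) and 0.34 above Cl19 d6 (adjusted p = 0.0532), directions that also turned in the authors' unnormalized values (-0.95 and -1.06).

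**Figure D2:**
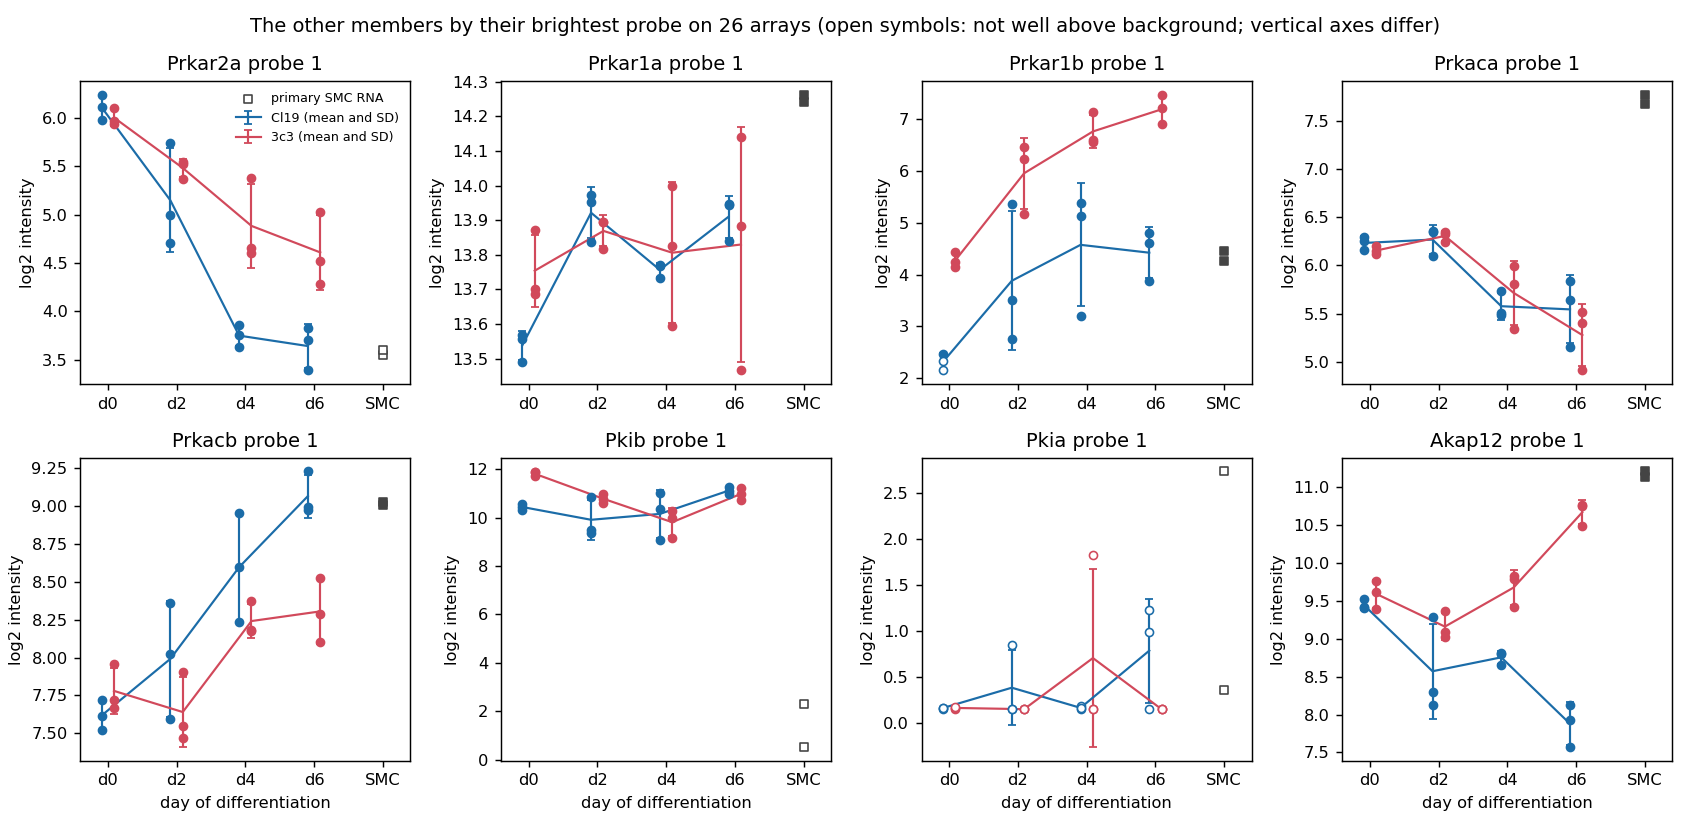
Log2 intensity of the brightest probe of the other 8 genes (vertical axes, which differ) by day and in primary SMC RNA (horizontal axes), with 1 symbol per array, open where not well above background, and lines and bars for the mean and SD of 3 arrays. Prkar2a and Prkaca fall, Prkar1b and Prkacb climb, Akap12 parts between the lines, and Pkib is at background only in primary SMC RNA.

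The catalytic subunit genes moved in opposite directions. Prkaca, which encodes Cα and was read from 10 spots per array, ran from 6.16 to 6.29 on Cl19 d0 and from 5.15 to 5.84 on d6. In 3c3 it ran from 6.12 to 6.20 on d0 and from 4.91 to 5.52 on d6. All d6 arrays lay below all d0 arrays of their line. The fall was 1.61-fold in Cl19 (-0.69, SE 0.18, adjusted p = 0.00361) and 1.84-fold in 3c3 (-0.88, adjusted p = 0.000578), and the lines did not differ detectably (0.19, adjusted p = 0.748). On d2 no change passed (0.04 in Cl19 and 0.15 in 3c3). Whether this timing differs from that of Prkar2b was not tested.

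Prkaca was higher in primary SMC RNA, at 7.77 and 7.68, than on any rMAPC array. It was 2.18 above Cl19 d6 (adjusted p = 1.19e-08) and 2.45 above 3c3 d6 (adjusted p = 2.1e-09). In the authors' unnormalized values these differences were -0.28 and 0.13, and the Cl19 fall to d6 was -0.25 (adjusted p = 0.283).

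Prkacb, which encodes Cβ, rose, most in Cl19. Its first probe read 7.52, 7.72 and 7.62 on Cl19 d0, 7.59, 8.36 and 8.02 on d2, 8.24, 8.96 and 8.60 on d4, and 9.23, 8.99 and 8.97 on d6. In 3c3 it read 7.72, 7.96 and 7.67 on d0 and 8.29, 8.53 and 8.10 on d6. All d6 arrays were above all d0 arrays of their line. The rise to d6 was 2.73-fold in Cl19 (1.45, SE 0.19, adjusted p = 3.28e-06) and 1.44-fold in 3c3 (0.52, adjusted p = 0.0301). On Cl19 d2 it was 0.37 (adjusted p = 0.184), which passed without the array labelled Cl19 d2 replicate 1 (0.57, adjusted p = 0.0368). The 3c3 call was lost when any of 4 single arrays was left out (adjusted p up to 0.126) and without the replicate 3 slide (0.57, adjusted p = 0.0901).

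The other Prkacb probes gave smaller or less certain changes in 3c3. Probe 2 had a change of 1.28 (adjusted p = 7.55e-05) in Cl19 and of 0.44 (adjusted p = 0.113) in 3c3, probe 3 of 1.27 (adjusted p = 0.0399) and 0.19 (adjusted p = 0.78), and probe 4 of 0.92 (adjusted p = 0.111) and -0.19 (adjusted p = 0.777). The mean over the probes of the gene gave 0.18 in 3c3 (adjusted p = 0.558). The rise was larger in Cl19 on probe 1, by 0.92 (SE 0.27, adjusted p = 0.0222), but this was lost without any of 4 single arrays (adjusted p up to 0.0637) and on probe 2 (0.84, adjusted p = 0.0774). Primary SMC RNA read 9.03 and 9.01 on probe 1, 0.71 above 3c3 d6 (adjusted p = 0.0061) and 0.05 below Cl19 d6 (adjusted p = 0.848), and the 3c3 difference turned in the authors' values (-1.65).

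Pkib, a peptide inhibitor of the free catalytic subunit, separated the rMAPCs from primary SMC RNA. Its first probe read 10.56, 10.33 and 10.43 on Cl19 d0, 10.87, 9.37 and 9.50 on d2, 9.10, 11.03 and 10.34 on d4, and 11.11, 10.98 and 11.26 on d6. In 3c3 it read 11.71, 11.87 and 11.87 on d0, 10.99, 10.59 and 10.75 on d2, 10.27, 9.17 and 10.00 on d4, and 10.99, 11.22 and 10.74 on d6. Both primary SMC arrays were at background (0.52 and 2.30). The d6 levels were at least 162-fold above primary SMC RNA in Cl19 and at least 148-fold in 3c3 (adjusted p = 1.91e-12 and 2.19e-12), and the d0 levels at least 102-fold and 264-fold. The second probe gave at least 33.9-fold and 31.3-fold on d6.

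Over the days Pkib fell in 3c3 to d4. It was 2.00 below d0 on d4 (SE 0.46, adjusted p = 0.00192) and 0.83 below on d6 (adjusted p = 0.143), and d6 was not past the threshold against d4 (1.17, adjusted p = 0.11). In Cl19 no day passed, and d6 was 0.68 above d0 (adjusted p = 0.229). Within slides d6 lay above d0 on 3 of 3 Cl19 slides and below it on 3 of 3 3c3 slides, yet the difference between the lines did not pass (1.51, SE 0.65, 95% confidence interval 0.16 to 2.86, adjusted p = 0.126). The second probe was called lower on 3c3 d6 (-1.07, adjusted p = 0.0415), which the replicate block ended (adjusted p = 0.0517), as did leaving out any of 6 single arrays (adjusted p up to 0.117). On Cl19 d2 it was -0.66 (adjusted p = 0.302), and -1.20 without the array labelled Cl19 d2 replicate 1 (adjusted p = 0.0286).

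Pkia, the other PKI gene on the array, was measured on 0 of 26 arrays. Its values ran up to 2.73, on 1 of the primary SMC arrays, and none was well above background, so no change was computed.

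Akap12, also known as gravin or SSeCKS, anchors PKA at the cell membrane and cytoskeleton, and it parted between the lines. In Cl19 it read 9.42, 9.40 and 9.52 on d0, 9.29, 8.13 and 8.30 on d2, 8.82, 8.65 and 8.79 on d4, and 7.57, 7.93 and 8.13 on d6. In 3c3 it read 9.76, 9.40 and 9.62 on d0, 9.09, 9.02 and 9.37 on d2, 9.42, 9.79 and 9.82 on d4, and 10.49, 10.76 and 10.77 on d6. The d0 arrays of the lines overlapped, and by d6 each 3c3 array was above each Cl19 array. Akap12 fell 2.97-fold in Cl19 (-1.57, SE 0.22, adjusted p = 7.55e-06) and rose 2.11-fold in 3c3 (1.08, adjusted p = 0.000536).

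The difference between the lines in the Akap12 change was -2.65 (SE 0.32, adjusted p = 8.26e-06), and -2.56 on the second probe (adjusted p = 0.000107). It kept its call with any single array left out (-2.77 to -2.49). On the second probe the fall in Cl19 was 1.80 (-1.80, adjusted p = 1.82e-05), and the rise in 3c3 of 0.76 (adjusted p = 0.0278) was lost without the 3c3 replicate 3 slide (adjusted p = 0.12). On Cl19 d2 the fall of probe 1 was 0.88 (-0.88, adjusted p = 0.00725) and 1.23 without the array labelled Cl19 d2 replicate 1 (-1.23, adjusted p = 2.93e-05). Primary SMC RNA read 11.13 and 11.21. It was 9.80-fold above Cl19 d6 (3.29, adjusted p = 4.85e-10) and 0.50 above 3c3 d6 (adjusted p = 0.0809), the latter turning to -1.57 in the authors' values. The fibroblast genes Dcn and Lum, as given above, were measured on all Cl19 d6 arrays and on no 3c3 array, while Col1a1 and Pdgfra moved the same way in both lines, and their part in the Akap12 difference was not tested.

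**Figure D3:**
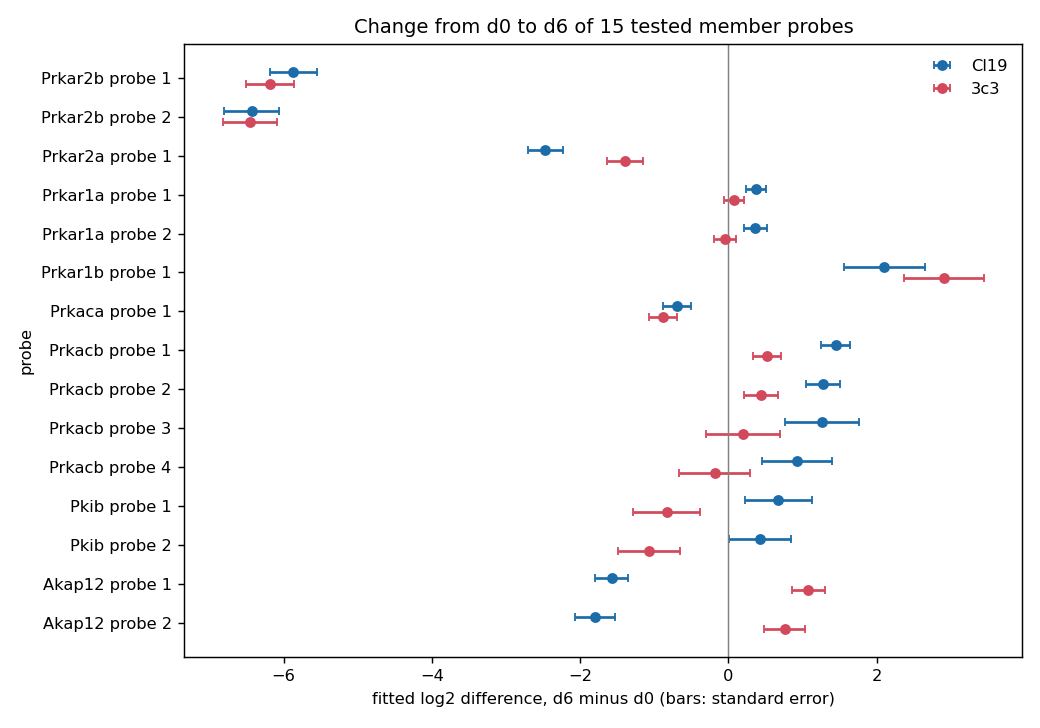
Fitted log2 difference from d0 to d6 (horizontal axis) of the 15 tested member probes (vertical axis), with bars for the standard error. The Prkar2b probes lie near -6 in both lines and the Akap12 probes on opposite sides of 0, near -1.6 in Cl19 and 1 in 3c3.

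Of the 7 tested genes other than Prkar2b, calls on d6 were 3 higher and 3 lower for Cl19, against 3 higher and 2 lower for 3c3. Over all tested probes 22.0% were called higher and 30.3% lower in Cl19, and 19.7% and 28.6% in 3c3, so a call on d6 was common, and the median of all probes lay at -0.20 and -0.21. In the authors' unnormalized values 55.7% of the Cl19 calls and 56.4% of the 3c3 calls were higher, against 42.1% and 40.7% here. Over the course as a whole (limma's F-test of d2, d4 and d6 against d0) 5 of the 7 passed in Cl19 and 6 in 3c3, against 54.3% and 50% of all probes. The change to d6 differed between the lines for 3 of the 8 tested genes, namely Prkar2a, Prkacb and Akap12, against 17.4% of all probes. The 8 include Prkar2b, which was chosen for its fall.

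Against primary SMC RNA the same 7 genes gave 2 higher and 1 lower than Cl19 d6, and 3 higher and 3 lower than 3c3 d6, with the same 2 primary SMC arrays in both comparisons. Over all probes 32.8% were higher and 38.6% lower than Cl19 d6, and 33.4% and 38.1% than 3c3 d6. Of these calls 45.9% and 46.7% were higher, but 8.3% and 9.5% in the authors' values, where the median of all probes was -2.17 and -2.09. Differences from primary SMC RNA were therefore read only relative to the other probes of the same arrays.

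The wider cAMP pathway was read from 6 lists of 84 genes, of which 80 had a probe and 61 were tested. In Cl19 18 genes (29.5%) were higher and 15 (24.6%) lower on d6, with a median change of -0.01. In 3c3 18 (29.5%) were higher and 13 (21.3%) lower, with a median of 0.05. The lower calls in 3c3 fell to 7 without the replicate 3 slide and to 8 in the authors' values. In both lines the share of higher genes was above, and the share of lower genes below, that over all probes given above, and this was not tested. The sets are unlike, as the lists count the brightest probe of each gene and the other shares every tested probe.

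Transcripts for cAMP production and removal shifted gene by gene, and cAMP itself was not measured. Over all probes 22.0% were called higher and 30.3% lower in Cl19, and 19.7% and 28.6% in 3c3. Of 12 tested adenylyl cyclases and G alpha subunits, 3 rose and 2 fell in Cl19, and 4 rose and 2 fell in 3c3. Adcy6, a calcium-inhibited adenylyl cyclase, rose 3.91-fold in Cl19 (adjusted p = 1.73e-05) and 6.22-fold in 3c3 (adjusted p = 8.46e-07). Gnas, the stimulatory G alpha subunit, rose 1.98-fold and 2.14-fold (adjusted p = 0.0203 and 0.0121). Adcy10, the soluble bicarbonate-sensitive cyclase, fell at least 2.67-fold and 1.84-fold (adjusted p = 0.00188 and 0.00806). Adcy9 fell in Cl19 (-1.37, adjusted p = 0.00539) and rose in 3c3 (1.17, adjusted p = 0.0164). With the replicate block, 5 rose in Cl19 and 4 fell in 3c3.

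Of 8 tested cAMP phosphodiesterases, 1 rose and 4 fell in Cl19, and 1 rose and 2 fell in 3c3. Pde11a was the only one lower in both lines, at least 3.98-fold in Cl19 (adjusted p = 0.000305) and at least 2.68-fold in 3c3 (adjusted p = 0.0039). The other calls were each made in 1 line, and these genes were chosen after their values were seen. In Cl19 Pde4a (-0.82), Pde4c (-2.28) and Pde4d (-4.05) fell and Pde10a rose (2.28), and in 3c3 Pde7a fell (-2.60) and Pde8a rose (2.46).

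Among 14 tested AKAPs besides Akap12, 5 rose and 3 fell in each line, 4 and 2 of them in both. Akap13 rose 2.35-fold in Cl19 (adjusted p = 0.00381) and 3.42-fold in 3c3 (adjusted p = 0.000191), and Akap7 rose 2.53-fold and 1.72-fold (adjusted p = 0.000157 and 0.0144). Akap1, the mitochondrial anchor, fell 2.73-fold and 1.65-fold (adjusted p = 2.32e-08 and 0.000146), and the nuclear Akap8 fell 1.32-fold and 1.35-fold (adjusted p = 0.00745 and 0.0048). Wasf1, an actin regulator that binds PKA, was the AKAP besides Akap12 that opposed itself between the lines, up in Cl19 (1.25, adjusted p = 5.22e-05) and down in 3c3 (adjusted p = 0.000617).

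Of 8 tested other cAMP-binding or PKA-related genes, 3 rose and 1 fell in each line. Pkig, the third PKI gene, rose 2.55-fold in Cl19 (adjusted p = 0.000305) and 1.77-fold in 3c3 (adjusted p = 0.0166). Prkx, a kinase related to the PKA catalytic subunits, rose 2.41-fold and 1.42-fold (adjusted p = 1.16e-05 and 0.0319).

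Downstream, 1 of 9 tested CREB family genes rose and 2 fell in Cl19, and 1 rose and 3 fell in 3c3. Creb3, a membrane-bound family member, rose 2.91-fold and 3.49-fold (adjusted p = 3.26e-08 and 8.04e-09). Creb1 itself fell 1.71-fold and 2.13-fold (adjusted p = 8.85e-05 and 2.63e-06), and its relative Atf1 2.19-fold and 1.65-fold (adjusted p = 0.000243 and 0.0113).

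Genes known to be induced through PKA and CREB did not move as 1 group. Of 11 tested, 5 rose and 4 fell in Cl19, and 4 rose and 2 fell in 3c3. Pde4d is on this list and on that of the phosphodiesterases, so its fall in Cl19 is counted in both. Areg, the EGF receptor ligand amphiregulin, rose 10.9-fold in Cl19 (adjusted p = 2.36e-06) and 218-fold in 3c3 (adjusted p = 1.1e-10), although it was lower in primary SMC RNA (mean 5.73) than on Cl19 or 3c3 d0 (7.55 and 7.19). Bdnf, a neurotrophin, was not measured on any d0 array and on 3 of 3 Cl19 and 2 of 3 3c3 d6 arrays, at least 22.4-fold higher in Cl19 (adjusted p = 2.41e-06 in Cl19 and 0.00137 in 3c3). Vip, a vasodilator peptide, fell at least 3.44-fold and 3.60-fold, to levels not measured on any d6 array (adjusted p = 3.1e-08 and 4.71e-08). Nr4a3, an orphan nuclear receptor, fell at least 2.81-fold in Cl19 (adjusted p = 7.26e-05) and was called lower in 3c3 as well (adjusted p = 0.0498), where neither day was measured on all arrays. Without the 3c3 replicate 3 slide 1 gene of this list was called lower in 3c3.

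**Figure D4:**
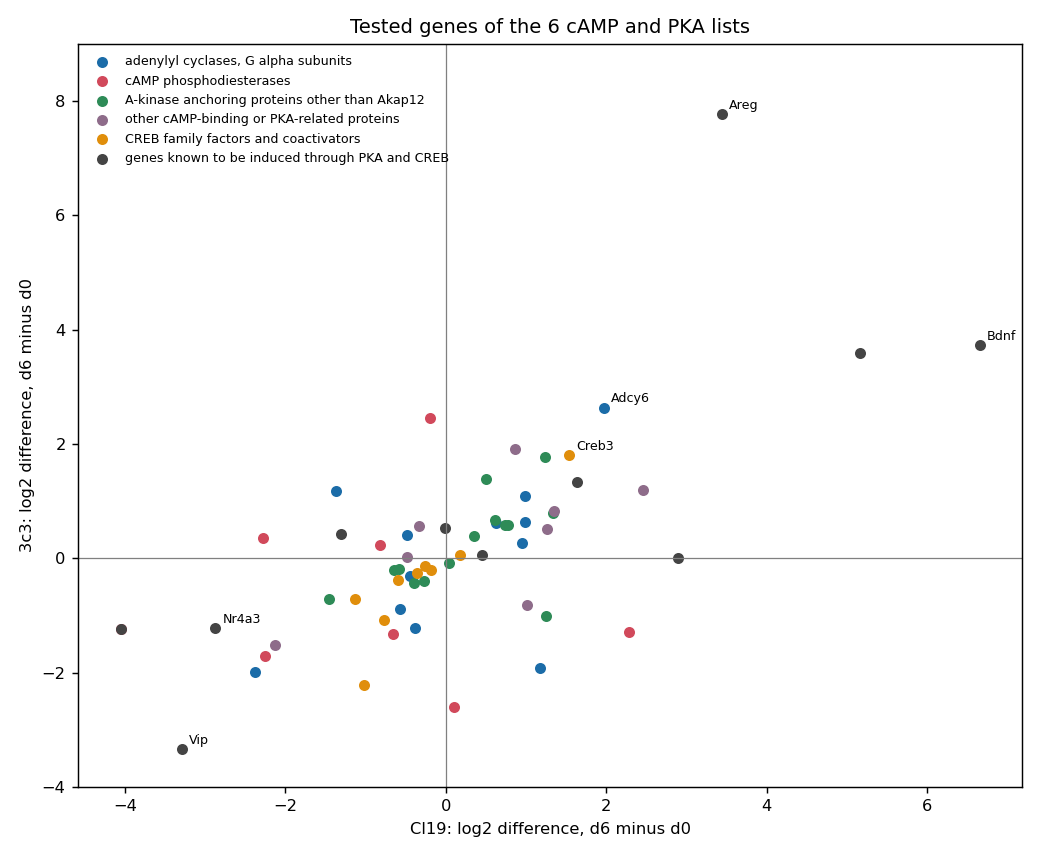
Log2 difference from d0 to d6 in Cl19 (horizontal axis) and 3c3 (vertical axis) for the tested genes of the 6 lists, 1 point per gene, coloured by list. Most points lie within 2 log2 units of 0, while Areg and Bdnf stand far up in both lines and Vip down.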

How the data were processed

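Total RNA of 26 samples was hybridised by the authors to 1-colour Agilent rat arrays and read with Agilent Feature Extraction 10.1.1.1 (per the submitters' processing notes and the file headers). The authors deposited, per array, the scanner's processed intensity (background-subtracted, not normalized between arrays) and a series table of log2 values. That table equals log2 of the processed intensity within 5.2e-14 and is therefore not normalized either. For its own analysis the study's methods describe quantile normalization. The probe positions in the files are rn4. RefSeq's GRCr8 gene table served for names and for the chromosomes of Prkar1a and its pseudogene.

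Here, quantile normalization was run across the 26 arrays on log2 processed intensities (43379 features for genes). Spots marked non-uniform or as population outliers were dropped, and repeated spots of a probe were averaged (41012 probes). A probe entered the tests if all arrays of 1 or more of the 9 groups read it well above background, and these 24442 probes were fitted in 1 limma model (limma 3.58.1, R 4.3.3), with Benjamini-Hochberg adjustment over all of them and a threshold of 0.05. Groups came from the sample labels. Where a group did not measure a probe on all its arrays, "at least" folds set the brighter group's mean against the dimmer group's mean of, per array, the higher of its own value and the lowest signal well above background. The number of arrays limits the precision. The script was tested on simulated data.

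The 9 genes and the pathway and marker lists were chosen with earlier results of these data known. Every member was named by all its probes. Of each list, up to 2 genes with the largest rise and 2 with the largest fall among those called the same way in both lines were named, with their brightest probe, and the 5 genes nearest to Prkar2b in profile. The lists covered adenylyl cyclases and G alpha subunits, phosphodiesterases, AKAPs, other cAMP-binding or PKA-related proteins, the CREB family, and genes induced through PKA and CREB, beside markers of smooth muscle, fat, endothelium, fibroblasts, leukocytes and undifferentiated rMAPCs.

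Within an rMAPC line, the same replicate number marks a shared slide in the scanner files, while the lines lay on different slides. Deviations from the group means correlated above 0.1 in 34 of 36 pairs of arrays on a slide (lowest 0.061), and in every d0 and d6 pair (lowest 0.108), so the numbers pair the arrays. The main fit did not use this pairing. The replicate block was an alternative fit, beside the slide as a block, a fit per line, other scalings and background corrections, the authors' table, other filters, the mean over probes, the methods' t-test and leaving out single arrays. No human sample was involved, and the authors' own comparisons were not used. The values of 1 gene of the pathway lists are not reported here.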

Additional observations from a re-analysis of the deposited data

Results flagged for a closer look

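The change of 3 of the 8 tested genes from d0 to d6 differed between the lines by the test of that difference itself. The threshold was an adjusted p below 0.05 in limma, and the 8 include Prkar2b, which was chosen for its fall. For Akap12 the Cl19 change less the 3c3 change was -2.65, with Akap12 lower on d6 on 3 of 3 Cl19 slides and higher on 3 of 3 3c3 slides. For Prkar2a it was -1.07 on d6 and -1.24 on d4, with a fall on all slides of both lines by d6. For Prkacb it was 0.92 on probe 1, with a rise on all slides of both lines on that probe. Probe 3 rose on 2 of 3 3c3 slides and probe 4 on 1 of 3. The difference between the lines did not pass on probes 2, 3 and 4 (adjusted p = 0.0774, 0.373 and 0.318). Without the 3c3 replicate 3 slide the calls of Prkar2a and Prkacb on d6 were lost (adjusted p = 0.102 and 0.106), as they were without any of 6 and any of 4 single arrays, whereas that of Akap12 was kept without any single array. With the slide as a block in limma, on the rMAPC arrays, the d6 calls were kept (adjusted p = 0.0117 for Prkar2a, 0.0056 for Prkacb and 5.59e-05 for Akap12). Over all tested probes 17.4% differed in this way on d6. Line and scan day cannot be told apart in these arrays.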

How the results depend on the processing

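Over 99 values and 38 other settings, 3197 of 3423 comparisons kept direction and side of the threshold (for counts, within 1.5 times; for untested values, within 1 SD). The fall of Prkar2b to d6 was -3.30 in Cl19 and -3.18 in 3c3 with normexp, whose offset of 50 by construction compresses dim signals, -5.52 in Cl19 in the authors' log2 table and -6.15 with the mean of its probes, against -5.87 and -6.18. The difference between the lines was -0.12 with normexp in place of 0.31. Leaving out single arrays gave -5.91 to -5.81 in Cl19, -6.55 to -5.97 in 3c3 and 0.10 to 0.69 for the difference. Without the 3c3 replicate 3 slide the 3c3 fall was -6.63 and the difference 0.76. Genes of the 6 lists called lower in 3c3 numbered 13, but 8 in the authors' table and 7 without the 3c3 replicate 3 slide.

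Of 20 reversals, 8 concerned primary SMC RNA in the authors' table, which is not normalized: against Cl19 d6, Prkar2b -0.076, Prkar1a -1.06 (second probe -1.42 or, against 3c3 d6, -1.39) and Prkaca -0.28, and against 3c3 d6, Prkar1a -0.95, Prkacb -1.65 and Akap12 -1.57. In that table the median of all tested probes was -2.17 against Cl19 d6 and -2.09 against 3c3 d6. With scaling to the 75th percentile Prkar1a changed to d6 by -0.018 in Cl19 and -0.30 in 3c3, and primary SMC RNA less Cl19 d6 was 0.29 for Prkar2a and 0.17 for Prkar1b. With dim values raised to the lowest measured signal Prkar2a gave 0.13 there. Without single arrays the sign also turned for primary SMC RNA less Cl19 d6 in Prkar2a (-0.191 to 0.029), Prkar1b (-0.334 to 0.13) and Prkacb (-0.095 to 0.032), and for the 3c3 change of Prkar1a (-0.079 to 0.258). None of these turned values had passed the threshold in the main setting except the Prkar1a change in Cl19 and, against primary SMC RNA, Prkar1a and Prkacb with 3c3 d6, the second Prkar1a probe with both lines, and Prkaca with Cl19 d6. The cause was not tested.

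The replicate block ended 1 call of a member, Pkib probe 2 on 3c3 d6 (-1.07, adjusted p = 0.0517), and moved 3 list counts by over 1.5 times: adenylyl cyclases and G alpha subunits 5 against 3 higher in Cl19 and 4 against 2 lower in 3c3, and other cAMP-binding genes 2 against 1 lower in Cl19. It changed no other call among the member values it was run on. Those were the changes to d6 on the brightest probes and their differences between the lines, and other values that the main fit had called. Calls gained elsewhere were not looked for. The methods' t-test after Benjamini-Hochberg adjustment called 4 of the 7 other members higher and 2 lower in Cl19, and 2 and 3 in 3c3. Signal over background limits Pkia, Prkacb probe 5, Prkar1b on Cl19 d0, the second Prkar2b probe after d2 and Prkar2a in primary SMC RNA, where values are bounds at best.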
